A study of Mus musculus with 2 samples.

Results

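The ONECUT and CUX motifs are the DNA patterns named ONECUT1, ONECUT2, ONECUT3, CUX1 and CUX2, 5 of the 579 transcription factor motifs counted in single nuclei of the mouse retina. They were taken by name, ignoring case, and each of the 5 names matched 1 motif. The retinas were wild type (WT), with no treatment named in the labels, and were collected on embryonic day E14.5. They were dissociated and profiled by single-cell ATAC-seq on the 10x Genomics platform, which reads the DNA that is open in each cell. There were 2 replicate libraries of this 1 group, called replicate 1 and replicate 2 here. The labels do not say whether they came from separate animals, so the spread between them may be technical. Each SD below measures that spread, while each SE is that of a fit whose spread was borrowed from all motifs. With only 1 group, the comparisons are between cells within each library, split by the motifs of other factors.

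ONECUT and CUX proteins are the cut-homeodomain transcription factors, which bind DNA through a homeodomain together with one or more cut domains, and their sites share a short AT-rich core. In the mouse retina, Onecut1 and Onecut2 are needed to make horizontal cells and are also present in ganglion cells, the output neurons that send axons to the brain. Cux1 and Cux2 are best known from neurons of the upper cerebral cortex. Ganglion cells carry the POU class 4 factors Pou4f1, Pou4f2 and Pou4f3, amacrine and horizontal cells carry Tfap2a and Tfap2b, and Prox1 marks horizontal cells and some amacrine cells. A motif count, as this kind of matrix generally holds it, sums the reads of open sites that contain a match to the motif: it says how open such sites were, not which protein bound there, and a site that matches 2 motifs adds to both counts.

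The cores ATCGAT and ATCAAT are the textbook forms of the ONECUT site, and they are shown here in RefSeq promoters (build GRCm38.p6, from 250 bases before to 50 bases after a gene's start, 300 bases) to show the letters behind the names, because the motif matrices themselves were not used here. Both strands were searched, so that ATCAAT also stands for ATTGAT, while ATCGAT reads the same on both. Of 32851 promoters, 304 (0.925%) held ATCGAT and 2477 (7.54%) held ATCAAT. Of 30 retinal genes looked up, 22 matched an entry, with 32 promoters, and 1 of these genes held ATCGAT and 2 held ATCAAT. The 3 windows follow, 5′ to 3′ on the gene's strand, with the core in capitals. Each distance is counted from the first base of the core, so the Tfap2b core runs across the start.
Cux2, one of its listed starts, chr5:122047862-122047927, minus strand, core 72 bases before the start: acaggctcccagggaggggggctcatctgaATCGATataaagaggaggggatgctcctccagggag
Tfap2b, chr1:19212021-19212086, plus strand, core 3 bases before the start: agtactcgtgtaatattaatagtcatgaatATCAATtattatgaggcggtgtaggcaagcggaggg
Sncg, chr14:34374653-34374718, minus strand, core 19 bases before the start: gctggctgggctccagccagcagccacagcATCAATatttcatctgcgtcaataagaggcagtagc
Sncg encodes gamma-synuclein, which is abundant in ganglion cells, and Tfap2b is the amacrine and horizontal cell factor named above. These matches describe the letters only, and the counts below come from open sites across the genome, not from these promoters.

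The libraries held 2422 and 3033 barcodes, and 1828 barcodes occurred in both. A barcode was kept as a cell where its total was at least 300000 motif counts and above the total of the same barcode in the other library, which left 890 and 1051 cells, 1941 in all, with median totals of 3519151 and 3523871 counts. The kept cells held 98.3% and 97.3% of all counts. Of them, 872 and 925 had a copy in the other library, at a median depth 56.5 and 127 times lower, and 1 cell was less than 10 times deeper than its copy.

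ONECUT3 was the most counted of the 5 motifs and CUX2 the least. ONECUT3 took 0.143% of the motif counts in replicate 1 and 0.156% in replicate 2, with a mean of 5499 counts per cell. ONECUT2 took 0.0750% and 0.0774%, and ONECUT1 took 0.0357% and 0.0359%. The CUX motifs were far rarer: CUX1 took 0.00634% and 0.00600%, a mean of 227 counts per cell, and CUX2 took 0.00317% and 0.00278%, a mean of 110. The ranges of the 2 libraries did not overlap between any of the 5 motifs, so the order ONECUT3, ONECUT2, ONECUT1, CUX1, CUX2 was the same in both, at ranks 124, 190, 322, 538 and 563 of 579. These shares depend on how often a pattern matches as well as on how open its sites are, and they do not rank the proteins.

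The libraries differed most for ONECUT3 and CUX2, in opposite directions. ONECUT3 was 0.13 higher in replicate 2 on the log2 scale, the 46th largest difference of the 579 motifs, and CUX2 was 0.19 higher in replicate 1, the 28th largest. The median size of the difference over all motifs was 0.02.

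Between cells, the rarer motifs varied more. The variation between cells beyond counting noise (the coefficient of variation left after the Poisson part is taken off) averaged 14.4% for CUX1, 15.6% for CUX2 and 10.1% for ONECUT1, above the median of all motifs, 6.19% and 6.27% in the 2 libraries. ONECUT2, at 5.07%, and ONECUT3, at 3.73%, lay below it. Counting noise made up 39.8% and 39.7% of the variance of CUX2 but 11.3% and 11.6% of that of ONECUT1, so CUX2 is the least precise of the 5 in a single cell. No kept cell had a count of 0 for any member.

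The first question is how the 5 motifs stand in cells whose POU class 4 motifs are open. A POU4F score was formed for each cell as the mean, over POU4F1, POU4F2 and POU4F3, of the z-score of the log2 share after regression on depth, and cells above 1 were called POU4F high. They numbered 137 in replicate 1 (15.4%, Wilson 95% interval 13.2 to 17.9, counting error only) and 151 in replicate 2 (14.4%, 12.4 to 16.6). This class is a range of a score and not a cell type, and 21 and 22 cells lay between 0.8 and 1.2. The depth of the classes was alike, with medians of 3534765 and 3424780 counts in the POU4F-high cells against 3518809 and 3537081 in the rest.

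All 5 motifs were higher in the POU4F-high cells, CUX1 and ONECUT1 by the most. CUX1 took 0.00737% of the counts in POU4F-high cells against 0.00617% in the other cells of replicate 1, and 0.00715% against 0.00584% in replicate 2. ONECUT1 took 0.0396% against 0.0351% in replicate 1 and 0.0408% against 0.0352% in replicate 2. Both were higher in the POU4F-high cells of each library, and the levels of the 2 classes did not overlap. The share of all motifs without such an overlap was not counted in any split. With the library as a block, the fitted difference was 0.29 for CUX1 on the log2 scale (SE 0.014, 22.2% higher, edgeR quasi-likelihood adjusted p = 5.99e-21) and 0.21 for ONECUT1 (SE 0.0074, 15.5% higher, edgeR adjusted p = 1.3e-25). CUX1 was the 4th highest of 579 motifs, after the 3 POU4F motifs that defined the split, and ONECUT1 was the 8th.

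CUX2 was the 11th highest. It took 0.00343% against 0.00312% in replicate 1 and 0.00312% against 0.00273% in replicate 2, and its fitted difference was 0.18 (SE 0.021, edgeR adjusted p = 6.22e-10). The libraries taken singly gave 0.15 and 0.21. The call on CUX2 depended on how the dispersion was set: under the edgeR fit that was run first, with dispersions from estimateDisp, its adjusted p was 0.515 at the same difference of 0.18, while DESeq2 and limma called all 5 motifs, beside 69.8% and 72.9% of all motifs.

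ONECUT2 and ONECUT3 moved by less. ONECUT2 took 0.0779% against 0.0745% in replicate 1 and 0.0806% against 0.0769% in replicate 2, a fitted difference of 0.08 (SE 0.0057, edgeR adjusted p = 8.56e-16), the 54th highest. ONECUT3 took 0.148% against 0.142% in replicate 1 and 0.161% against 0.155% in replicate 2, a fitted difference of 0.07 (SE 0.0052, edgeR adjusted p = 1.9e-14), the 76th highest. For ONECUT3 the spread between the libraries was larger than the difference, so its levels overlapped between the classes although it was higher in the POU4F-high cells of both.

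The count of 5 of 5 motifs called, all higher, stands against a background in which 73.7% of all 579 motifs were called, 40.2% higher and 33.5% lower. The fit had 4 sums and 1 residual degree of freedom, and its spread was borrowed from motifs that share sites and are not independent. For ONECUT1 the SE was 0.0074, while replicates 1 and 2 taken singly gave 0.18 and 0.22. Without the library as a block, 1 of the 5, ONECUT1, and 22 motifs of all were called. Of 17 motifs of other homeodomain relatives (among them POU, PBX, MEIS and TGIF factors), 12 were called higher and 2 lower, with a median of 0.07 against 0.005 for all motifs.

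The separation of single cells was partial. In replicate 1, 92.7% of the POU4F-high cells lay above the median of the other cells for CUX1 and 86.9% for ONECUT1. In replicate 2 these were 90.1% and 94.0%. For CUX2 they were 72.3% and 75.5%.

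**Figure D1:**
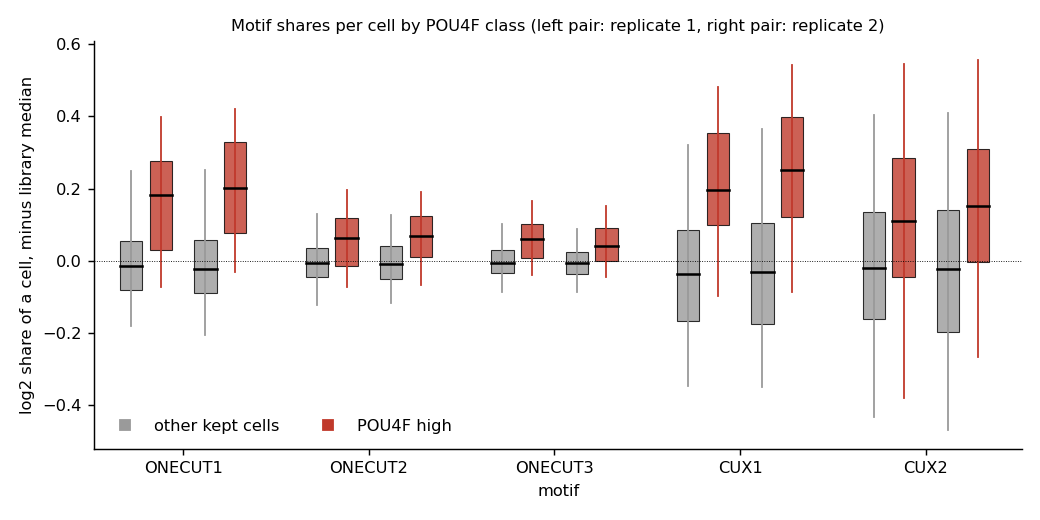
Share of a cell's motif counts taken by each motif, as log2 minus the library's median (vertical axis), for POU4F-high cells (red) and all other kept cells (grey). Boxes run from the 25th to the 75th percentile of the cells with the median as a line, whiskers run from the 5th to the 95th percentile, and the red medians lie above the grey ones for all 5 motifs in both libraries, the most for CUX1 and ONECUT1, while the boxes of some motifs overlap.

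Along the POU4F score the rise lay in its upper end. When the cells of each library were divided into 5 equal parts by the score, CUX1 stood between -0.07 and -0.03 (log2 against the whole library) in the lower 4 parts of replicate 1 and between -0.05 and -0.04 in those of replicate 2, and at 0.20 and 0.21 in the top part. ONECUT1 stood between -0.05 and -0.02, and between -0.04 and -0.01, in the lower 4 parts, and at 0.14 and 0.15 in the top one. This division was added after the classes had been compared and is given as a description.

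**Figure D2:**
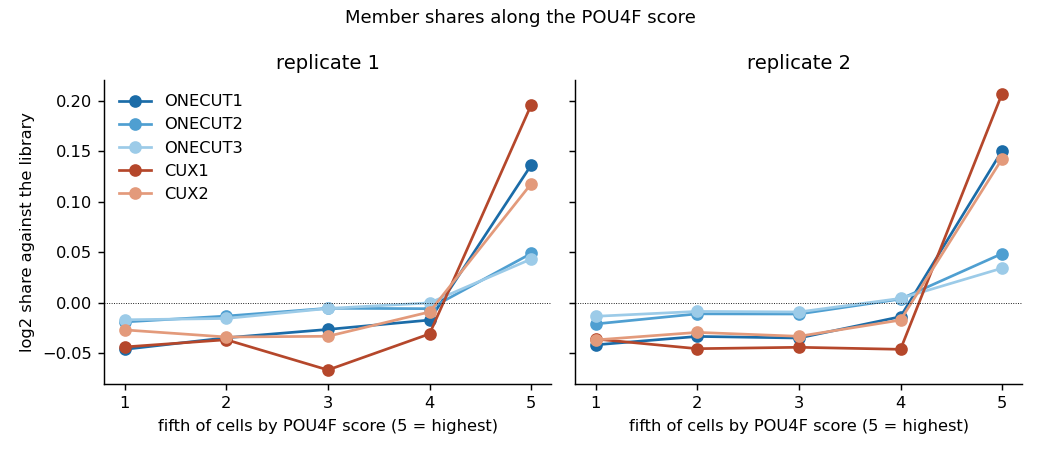
Share of each motif as log2 against its whole library (vertical axis) in 5 equal parts of the cells by POU4F score (horizontal axis), 1 panel per library. The lines are nearly level over the lower 4 parts and step up in the top part, to 0.20 and 0.21 for CUX1.

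The 5 motifs fell into 2 tight groups across cells. As a description over the 890 and 1051 cells, which share a library, depth and overlapping sites, the depth-corrected log2 shares of ONECUT2 and ONECUT3 had a Pearson correlation of 0.84 in both libraries. That of ONECUT1 and ONECUT2 was 0.82 and 0.80, and that of CUX1 and CUX2 was 0.70 and 0.66. Between the groups the highest was ONECUT1 with CUX1, at 0.47 in both. The correlation with the POU4F score was lower among the cells that were not POU4F high. Those cells span a narrower range of that same score, which by itself lowers a correlation, so no conclusion is drawn from the fall. For ONECUT1 it went from 0.47 and 0.51 in all cells to 0.24 and 0.19. For ONECUT2 it went from 0.34 and 0.36 to 0.20 in each library, and for ONECUT3 from 0.41 and 0.36 to 0.25 and 0.20. For CUX1 it went from 0.36 in each library to 0.01 and -0.01, and for CUX2 from 0.16 and 0.22 to 0.09 and 0.07.

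Outside the members, the motifs most like the mean ONECUT score over cells were POU4F1 (mean correlation of the 2 libraries 0.45), POU4F3 (0.45), MEIS1 (0.43), MEIS2 (0.39) and POU4F2 (0.39). MEIS proteins are homeodomain cofactors of the TALE class. The least like were SCRT1 (-0.38), RARA::RXRG (-0.37) and TEAD3 (-0.36). For the CUX score motifs among the most like were POU4F1 (0.31), POU4F3 (0.30), Myod1 (0.27) and MZF1 (0.27), and the least like were TEAD3 (-0.35) and MSX1 and Msx3, which had identical values (-0.32). TEAD factors act in the Hippo pathway. The median over all motifs lay between -0.02 and 0.00 for both scores.

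**Figure D3:**
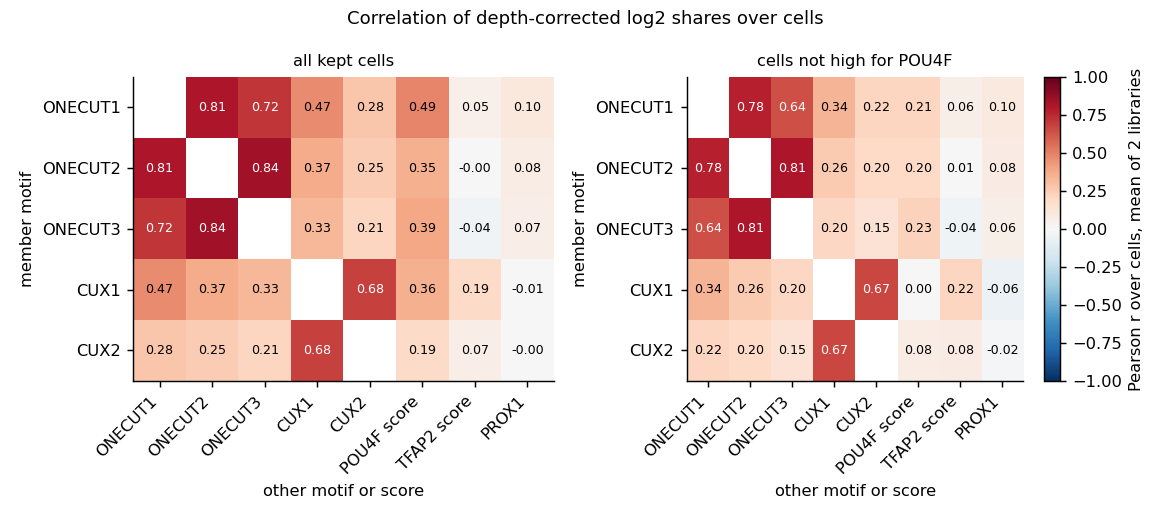
Pearson correlation over cells of the depth-corrected log2 shares, mean of the 2 libraries, for all kept cells (left) and for cells not high for POU4F (right). The ONECUT block and the CUX pair stand out in both panels, and CUX1 with the POU4F score drops from 0.36 to 0.00. The right panel leaves out the highest POU4F scores, which by itself lowers correlations with that score.

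The overlap of the high classes was partial. Cells were also called ONECUT high where the mean z-score of the 3 ONECUT motifs was above 1 (131 and 142 cells) and CUX high by the same rule (113 and 121 cells), a description added after the main comparison. Of the POU4F-high cells, 45.3% (Wilson 95% interval 37.2 to 53.6) and 44.4% (36.7 to 52.3) were ONECUT high, against 9.16% and 8.33% of the others. CUX-high cells made up 35.8% and 35.1% of the POU4F-high cells against 8.50% and 7.56% of the others. In the other direction, 47.3% and 47.2% of the ONECUT-high cells were POU4F high, and 69 and 75 ONECUT-high cells were not. In those cells, CRX, the photoreceptor factor, was higher by 0.17 ± 0.014 (log2, SD, n = 2) and NEUROD1, a neurogenic factor, by 0.15 ± 0.0035 than in the cells high for neither. OTX2, another photoreceptor factor, was higher by only 0.06 ± 0.0094, and other photoreceptor motifs were not compared in this way. In POU4F-high cells that were not ONECUT high, NEUROD1 was higher by 0.15 ± 0.041 as well, and CRX differed by 0.006 ± 0.036. In cells high for both, NEUROD1 differed by only 0.013 ± 0.026 and CRX by 0.0097 ± 0.026. The 9 TFAP2 motifs differed by -0.002 (a TFAP2B variant) to 0.05 (TFAP2B) in the ONECUT-high cells that were not POU4F high, and PROX1 by 0.03 ± 0.037, which is within the spread of the libraries.

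The second question is the relation to the TFAP2 motifs. By the same score over 9 TFAP2 motifs, 66 cells (7.42%) and 70 cells (6.66%) were TFAP2 high, and 59 cells of each library lay between 0.8 and 1.2, so this class depends more on the threshold than the POU4F class does. CUX1 took 0.00704% of the counts in them against 0.00631% in the rest of replicate 1, and 0.00661% against 0.00598% in replicate 2. CUX1 was higher in both and did not overlap between the classes, with a fitted difference of 0.15 (SE 0.015, edgeR adjusted p = 0.00184), the 14th highest of 579. The 9 TFAP2 motifs that define the split rose by 0.11 to 0.15 and ranked from 18 to 60, below CUX1. The largest rises were those of ZBTB7B (0.605), ZBTB7C (0.335) and HIF1A (0.320), so the split did not single out TFAP2 motifs. CUX2 was higher by 0.11 (SE 0.029, edgeR adjusted p = 0.027), with levels of 0.00348% against 0.00315% and 0.00293% against 0.00277% that overlapped across the libraries. ONECUT1 was higher by 0.06 (SE 0.0081, edgeR adjusted p = 0.00349), at 0.0368% against 0.0357% and 0.0377% against 0.0358%. The difference was 0.02 for ONECUT2 (edgeR adjusted p = 0.0196) and 0.01 for ONECUT3, which was not called (edgeR adjusted p = 0.0761).

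These 4 calls of 5 stand against 74.1% of all motifs called, 33.3% higher and 40.8% lower, and they depend on the method. The edgeR fit that was run first called 0 of the 5 motifs and 84 motifs in all, with adjusted p from 0.0724 for CUX1 to 0.955 for ONECUT3. At an unadjusted p under 0.05 it had 2 of the 5, beside 242 of all motifs. DESeq2 called 5 of the 5 beside 75.3% of all motifs, and limma 4 beside 73.7%. A stricter score of 1.5, with 28 and 24 TFAP2-high cells, also called 0 of the 5, beside 247 motifs in all. The middle of 3 equal parts of the cells by depth called 2. Depth moved with this split: the TFAP2-high cells had median totals of 1935234 and 2197131 counts against 3601686 and 3601956 in the rest. The 9 promoter motifs of the SP, KLF, EGR and NRF1 kind were also all called higher, by 0.09 to 0.16. The middle part by depth held 11 and 20 TFAP2-high cells. There CUX1 differed by 0.15 (edgeR adjusted p = 0.00787) and ONECUT1 by 0.08 (edgeR adjusted p = 0.00116), while CUX2 and ONECUT2 were not called (edgeR adjusted p = 0.0949 and 0.0793), beside 58.0% of all motifs called. The part of promoter signal in the result was not tested.

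POU4F motifs were lower in the TFAP2-high cells, POU4F2 by the most (-0.11, SE 0.010, edgeR adjusted p = 0.00153). Among cells that were not POU4F high, the differences were 0.20 for CUX1 (SE 0.021, edgeR adjusted p = 7.31e-04) and 0.09 for ONECUT1 (SE 0.0084, edgeR adjusted p = 4.5e-04), and all 5 motifs were called, beside 74.8% of all motifs. Of the 14 motifs of the horizontal and amacrine list (the TFAP2 motifs, PROX1, BARHL2 and the 3 ONECUT motifs), 11 were called higher and 0 lower in the TFAP2 split. The 9 TFAP2 motifs define the split and account for 9 of these. ONECUT1 and ONECUT2 are the others. The list was not particular to this split: in the POU4F split, 11 of its motifs were also called higher and 0 lower. Those included 6 of the 9 TFAP2 motifs and PROX1 (0.15, SE 0.027, edgeR adjusted p = 4.51e-06).

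The third question is the relation to PROX1. A count of 68.4 per cell made PROX1 the sparsest of the motifs used for a split, and 112 cells (12.6%) and 136 cells (12.9%) were PROX1 high, with 88 and 93 cells between 0.8 and 1.2. ONECUT1 took 0.0358% of the counts in PROX1-high cells against 0.0357% in the rest of replicate 1 and 0.0362% against 0.0359% in replicate 2. CUX1 took 0.00637% against 0.00633% and 0.00615% against 0.00599%. The levels overlapped between the classes for all 5 motifs, an overlap that was not counted over all motifs. None of the 5 was called by edgeR, with fitted differences of 0.01 (SE 0.0070) for ONECUT1, 0.001 (SE 0.0058) for ONECUT2, 0.004 (SE 0.0050) for ONECUT3, 0.03 (SE 0.013) for CUX1 and 0.03 (SE 0.018) for CUX2, and edgeR adjusted p between 0.0979 and 0.893. Taken singly, replicates 1 and 2 gave 0.009 and 0.04 for CUX1 and 0.01 and 0.06 for CUX2, so these values rest mostly on replicate 2. At an unadjusted p under 0.05, edgeR had 1 of the 5, limma 1 and DESeq2 0, beside 255, 253 and 196 of all motifs. After adjustment limma and DESeq2 also called 0 of the 5, beside 172 and 105 of all motifs. The background in the edgeR fit was 28.0% of all motifs called, 19.2% higher and 8.81% lower.

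The POU4F motifs themselves were higher in PROX1-high cells, POU4F1 by 0.08 (SE 0.0059), and PROX1-high cells were shallower, with medians of 2997439 and 2593946 counts against 3593632 and 3602669. Among cells not high for POU4F, ONECUT1 was lower in the PROX1-high cells by 0.02 (log2 -0.02, SE 0.0076, edgeR adjusted p = 0.0349), against the direction in all cells. The other 4 motifs were not called there, beside 92 motifs called in all. The correlation of ONECUT1 with PROX1 over those same cells was positive, 0.11 and 0.08, so the sign there depended on the measure. The 3 splits use the same cells, and their differences were not tested against each other.

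**Figure D4:**
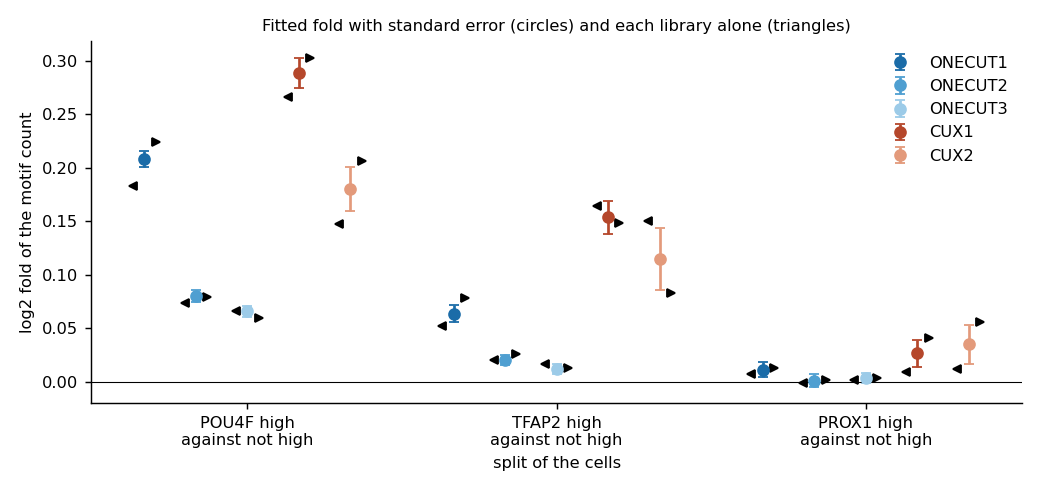
Fitted log2 difference of each motif between high and not-high cells (circles, bars are the standard error of the fit) for the 3 splits, with each library alone as triangles pointing left for replicate 1 and right for replicate 2. Values reach 0.29 in the POU4F split and 0.15 in the TFAP2 split, and stay near 0 in the PROX1 split.

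Cells were finally grouped without the 5 motifs, by clustering on the other 574. Of 7 clusters, 6 held at least 20 cells in each library and were used, and the 7th, with 21 and 18 cells, was left out. All 5 motifs differed between clusters (edgeR adjusted p from 2.51e-10 for ONECUT1 to 4.52e-06 for CUX2), as did 97.6% of all motifs, so the test alone says little of these 5. Cluster 4, in which 87.8% and 87.9% of the cells were POU4F high, had the highest level of every member in both libraries: ONECUT1 stood 0.16 and 0.20 above its library, and CUX1 0.22 and 0.25.

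The highest and lowest clusters by the mean score of all 5 motifs were chosen in one library and measured in the other. Cluster 4 exceeded cluster 5 by 0.31 ± 0.0019 for CUX1 and 0.29 ± 0.048 for ONECUT1 (log2, SD, n = 2). Cluster 5 was not the lowest for CUX1 itself, at -0.09 and -0.03 against -0.09 and -0.10 in cluster 1. CUX2 differed by 0.22 ± 0.057, ONECUT2 by 0.12 ± 0.0093 and ONECUT3 by 0.08 ± 0.0048. Cluster 3, with 14.4% and 14.6% of its cells POU4F high, came next for ONECUT1 (0.08 in both libraries), and then cluster 6 (0.04 and 0.07). In cluster 6 only 1.52% and 0% of the cells were POU4F high, and POU4F1 was the lowest of the clusters used (-0.137 and -0.135). For CUX1 the order of these 2 was reversed, with cluster 6 at 0.15 and 0.12 and cluster 3 at 0.10 in both. For CUX2 their order differed between the libraries, with cluster 6 at 0.07 and 0.04 and cluster 3 at 0.06 and 0.10. Cluster 6 was the shallowest, at medians of 2145302 and 2534455 counts, and the part of depth in its level was not tested. In clusters 1, 2 and 5, where under 1% of cells were POU4F high, all members but ONECUT3 in replicate 2 of cluster 2 (0.001) stood below their library.

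**Figure D5:**
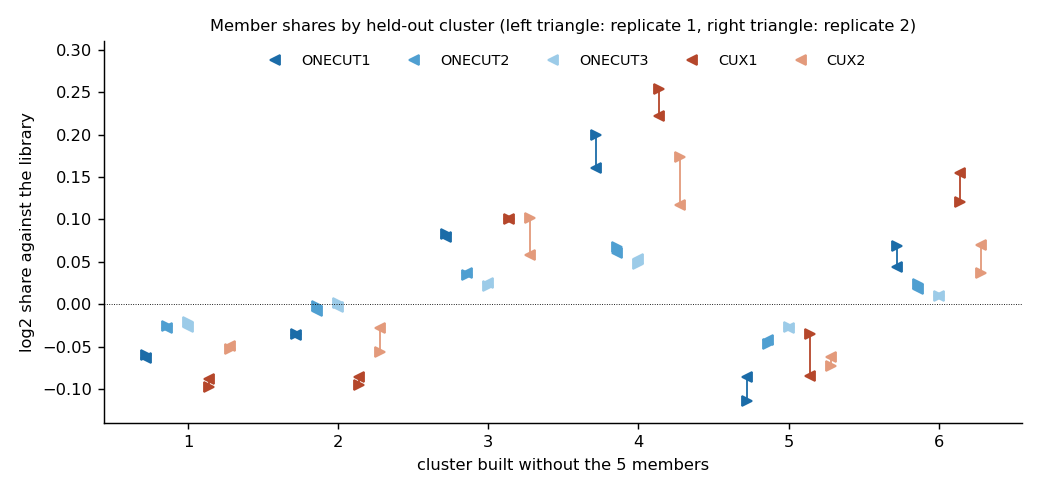
Share of each motif as log2 against its library (vertical axis) in the 6 clusters built without the 5 motifs (horizontal axis), with triangles pointing left for replicate 1 and right for replicate 2, joined by a line. Cluster 4 has the highest level of every motif, and clusters 3 and 6 follow in an order that differs between motifs.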

How the data were processed

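The authors deposited, for each library, counts per motif and cell barcode. Cell Ranger and build mm10 are named per the submitters' processing notes, and software version 1.1.0 per the file headers; how peaks were called and motifs matched is not stated there. The cell filter, the score classes (above 1, pseudocount 1) and the named motifs follow written rules; the members, lists and promoter genes were chosen with earlier results of these data known. Named are all members, the comparators, the 5 most and 3 least similar motifs and the 3 largest changes per split, except items that are not reported here.

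Counts were summed per library and class and tested with edgeR 4.0.16 (glmQLFit with its current quasi-likelihood method, TMM, R 4.3.3), with the library as a block because both classes come from the same libraries, and Benjamini-Hochberg adjustment over 579 motifs at 0.05. This is not the fit that was run first. The first used dispersions from estimateDisp and the older quasi-likelihood path, and it was replaced after its calls on the 5 motifs had been seen, because of deviances such as 776000 for ONECUT1 in the POU4F split, against 41.5, and an F for CUX2 of 0.535 against 74.6. That reason does not cover every call that changed: the deviance of CUX2 there was 2.27 against 8.44, and in the TFAP2 split that of CUX1 was 0.267 against 1 and its F 188 against 99.5. The change raised the members called from 4 to 5 in the POU4F split and from 0 to 4 in the TFAP2 split, and left 0 in the PROX1 split and 5 across clusters. limma was added at the same time, and DESeq2 1.42.0 had been planned. Cells were clustered with scanpy 1.11.5 (15 components, 20 neighbours, Leiden resolution 0.5). Doublets were not called. Cells are not replicates, and depth sets counting error only.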

Additional observations from a re-analysis of the deposited data

Results flagged for a closer look

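Barcodes left out of the comparisons, 1532 in replicate 1 and 1982 in replicate 2, held counts of all 5 motifs, above the 3 counts that a count of 0 allows. ONECUT1 had 20547 and 38613 counts there, ONECUT2 had 42909 and 82474, and ONECUT3 had 82139 and 166350. CUX1 had 3672 and 6387, and CUX2 had 1955 and 2913. Their shares of the left-out counts, such as 0.0355% and 0.0361% for ONECUT1, were close to those in the kept cells.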

How the results depend on the processing

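Without the replicate block (the library), the members called fell to 1 of 5 (22 motifs in all) in the POU4F split, 0 (34) in the TFAP2 split, 0 of all motifs in the PROX1 split, and 2 (353) across clusters. The edgeR fit run first and replaced after its results were seen gave 4 (419), 0 (84), 0 (179) and 5 (538). CUX2 in the POU4F split and all 4 TFAP2 calls rest on that change, though limma and DESeq2 did not use it. Added later, limma gave 5 (422), 4 (427), 0 (172) and 5 (566). DESeq2 gave 5 (404), 5 (436), 0 (105) and 5 (567). The TFAP2 calls were 2 (336) in the middle of 3 equal parts by depth and 0 (247) at a score of 1.5. For PROX1, all motifs called were 105 with DESeq2, 4 at a cell minimum of 100000, 84 at 1000000, 54 in the middle part, 21 at a score of 0.5 and 77 at 1.5, and 92 in cells not high for POU4F, where 1 member was called and ONECUT1 reversed to -0.024. The cause was not tested. The ONECUT to CUX correlation, 0.38, was 0.27 at a minimum of 100000, 0.44 at 1000000 and 0.54 in the middle part. Leaving out a library gave 0.18 to 0.22 for ONECUT1, 0.07 to 0.08 for ONECUT2, 0.06 to 0.07 for ONECUT3, 0.27 to 0.30 for CUX1 and 0.15 to 0.21 for CUX2 in the POU4F split, 0.33 to 0.42 for that correlation and 0.263% to 0.278% for the members' summed share. With 1 library left there is no test. Using only barcodes at least 10 times deeper than their copy, added later, left the members called at 5 (417 motifs in all), 4 (422) and 0 (164). CUX2 and PROX1 have few counts per cell, 110 and 68.4.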
